A study of Homo sapiens with 12 samples.

Results

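The genes described here encode 31 constitutive subunits of the proteasome, the protease that degrades ubiquitin-tagged proteins. They were taken by symbol from a fixed list of core and regulatory particle genes, and all 31 stood on 1 row each in both expression tables, of 23524 symbols present in both. The core particle accounts for 14 of them (PSMA1 to PSMA7 and PSMB1 to PSMB7) and the regulatory particle for 17 (PSMC1 to PSMC6 and 11 PSMD genes). The study sequenced polyadenylated RNA of Granta-519 and JeKo-1, established human mantle cell lymphoma lines, after lentiviral infection with a control shRNA (shCtrl) or one that targets cyclin D1 (shCycD1). Every library, controls included, came from infected cells selected with puromycin. Granta-519 was grown in RPMI and JeKo-1 in DMEM, both with serum, so medium and line cannot be told apart. There were 3 libraries in each of the 4 groups, 12 in all. The labels call them biological replicates but do not say whether they came from separate infections, so p-values measure the spread between these libraries, which may be partly technical. For the hairpin sequence and the time from infection to extraction the sources used here give nothing, and each condition in a line is represented by 1 shRNA label.

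The proteasome is a barrel with a cap. Stacked alpha and beta rings form the barrel, the core particle, in which the beta subunits PSMB5, PSMB6 and PSMB7 cut peptide bonds and the alpha rings gate the entrance. The cap, or regulatory particle, has a base with a ring of ATPases that unfold substrates and thread them into the core, and a lid that removes ubiquitin chains. Its subunits are made in fixed proportion, and their genes are known to be induced together by the transcription factor NFE2L1 when proteasome activity runs short. Proteasome inhibitors such as bortezomib, which binds PSMB5, are used against mantle cell lymphoma.

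CCND1, the targeted gene, checked the labels. Its RPKM (read count scaled by gene length and by the reads of the library) in Granta-519 was 924, 1044 and 874 in the shCtrl and 213, 298 and 292 in the shCycD1 libraries. In JeKo-1 it was 395, 330.1 and 315 in the shCtrl and 65.4, 64.8 and 67.4 in the shCycD1 libraries. The log2 change was -1.83 ± 0.14 (SE), adjusted p = 0.000257, in Granta-519 and -2.38 ± 0.093 (SE), adjusted p = 1.96e-06, in JeKo-1, and the groups did not overlap in either line. Across genes, Pearson's r was 0.981 to 0.988 within and 0.954 to 0.962 between the groups of Granta-519, and 0.968 to 0.974 within and 0.881 to 0.898 between those of JeKo-1. All 6 B-cell markers passed the filter on low values (an RPKM of 1 in 3 or more libraries of the line) in both lines, as did all 31 subunits. Their summed RPKM ran from 2288.8 to 2382.9 in the shCtrl and 2091.6 to 2194.4 in the shCycD1 libraries of Granta-519, and from 907 to 1045 and 1279 to 1451 in JeKo-1, and the part of this shift in the subunit values was not tested. The 6 T and NK cell markers summed to between 0.977 and 1.43 RPKM in each Granta-519 library and between 2.28 and 2.92 in each JeKo-1 library. In Granta-519 0 of them passed the filter. In JeKo-1 1 passed and was called as risen with the deposited scaling (log2 change 0.28). Of the 5 myeloid markers, S100A8 was at 0 in every library of both lines and S100A9 in every JeKo-1 library, and the list summed to 38.9 to 51.6 RPKM in Granta-519 and 1.82 to 2.39 in JeKo-1. Most of the Granta-519 sum was CSF1R, the 1 myeloid marker that passed the filter there. Its mean RPKM was 46.8 in shCtrl and 41.9 in shCycD1, and its change was not called (-0.16, adjusted p = 0.202). In JeKo-1 1 myeloid marker passed, with a log2 change of -0.030 that was not called. The 6 epithelial and fibroblast markers summed to 11.1 to 15.9 RPKM in Granta-519 and, with KRT19 at 0, to 1.67 to 2.92 in JeKo-1. In Granta-519 3 of them passed the filter, KRT18 (mean RPKM 4.12 in shCtrl and 3.98 in shCycD1), COL1A1 (5.78 and 8.28) and PDGFRB (1.96 and 1.55). COL1A1 rose there by 0.48 ± 0.12 (SE) on the log2 scale, adjusted p = 0.019, with the deposited scaling. Read depth in JeKo-1 is unknown. In Granta-519 the steps between low values correspond to 16351341 to 40008340 reads per library if 1 step is 1 read, which could be wrong by a factor of 2.

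As a share of all RNA, most subunit transcripts were lower after cyclin D1 silencing in JeKo-1, and about as many fell as did not in Granta-519, where the direction flips with spike-in scaling. In JeKo-1, 28 of the 31 genes fell, 0 rose and 3 did not pass the test, with a median log2 change of -0.63 against 0.085 over all genes tested. Of all 11866 genes tested in JeKo-1, 27.8% fell and 36.7% rose. In Granta-519, 15 of the 31 fell on the deposited scale, 0 rose and 16 did not pass, with a median of -0.24 against 0.032 over all genes, but when the libraries were scaled to the added spike-in RNAs all 31 estimates were above 0, 10 rose and 0 fell. Of all 12668 genes tested in Granta-519, 18.2% fell and 22.4% rose on the deposited scale. A call here is a Benjamini-Hochberg adjusted p under 0.05 over all genes of a line in limma, on log2(RPKM + 0.5). Fold changes on that scale understate the change of low genes, and errors after a log2 change are standard errors (SE). Both scales are relative. The deposited values are scaled by the reads of each library, so they show a gene's share of the RNA, and in these bulk samples fewer cells that express a gene and less RNA per cell cannot be told apart.

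The spike-in RNAs set another baseline. Spike-in scaling moved the median change of all Granta-519 genes from 0.032 to 0.72 and left 1.26% of all genes as fallen and 58.9% as risen, with the subunits at a median of 0.51. Relative to all genes, the subunits' median was 0.27 lower on the log2 scale with the deposited scaling and 0.21 lower with the spike-ins, and 25 of 31 stood below the all-gene median with the spike-ins. In JeKo-1 spike-in scaling moved the all-gene median only to -0.032, all 31 estimates stayed below 0 with a median of -0.75, and 12 fell (14.6% of all genes fell and 14.01% rose). These were PSMA2, PSMA3, PSMA4, PSMA7, PSMB2, PSMC2, PSMC3, PSMC5, PSMD1, PSMD11, PSMD12 and PSMD14, and no other subunit's JeKo-1 fall was called with the spike-ins. Every Granta-519 fall below is on the deposited scale, and none of those genes fell with the spike-ins. Subunits given below as not called in Granta-519 are likewise judged on the deposited scale. With the spike-ins 10 of them were called there as rises, PSMB1, PSMB4, PSMB5, PSMB7, PSMC4, PSMD4, PSMD6, PSMD7, PSMD8 and PSMD13. Levels are not compared between the lines, because the gene lengths behind them may differ. The Granta-519 values are per kilobase of genomic span, introns included. The length behind the JeKo-1 values is not settled, and transcript length matched them better than genomic span did.

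**Figure D1:**
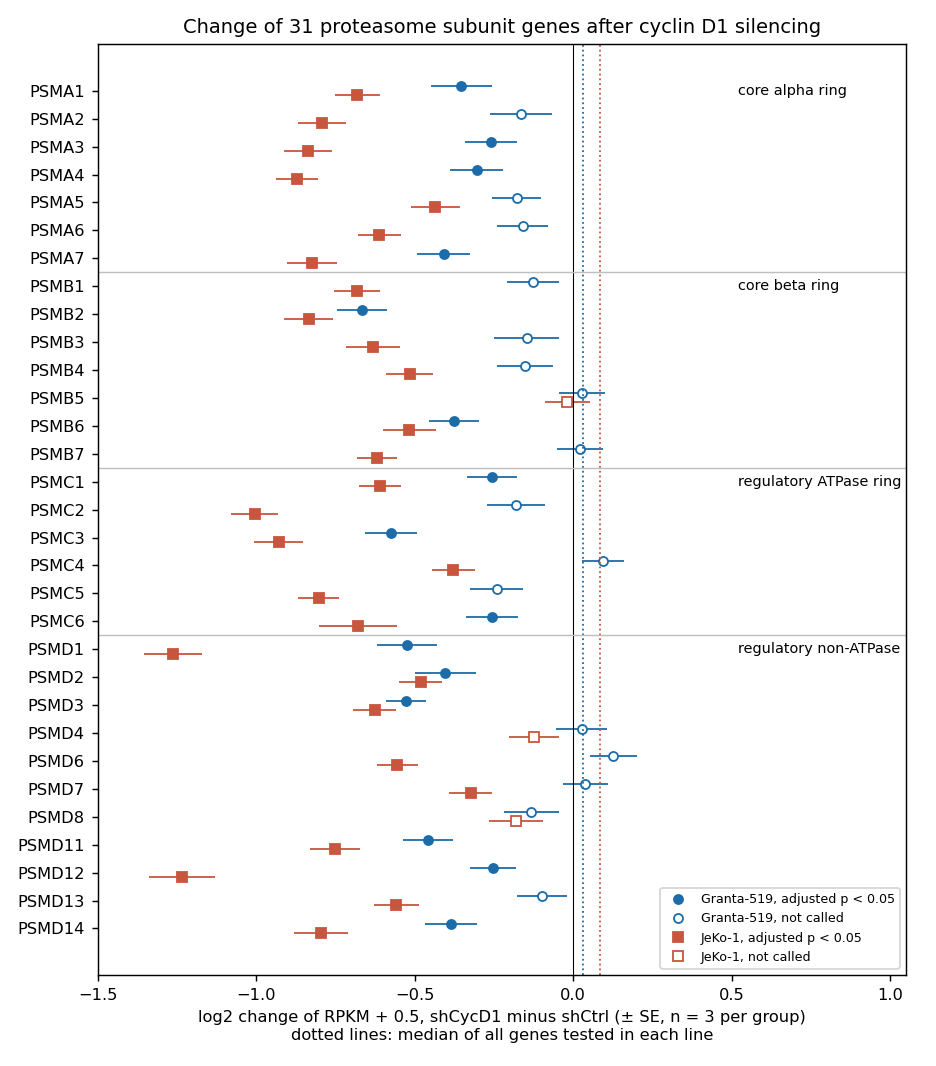
Log2 change of RPKM + 0.5 (shCycD1 minus shCtrl, ± SE, n = 3 libraries a group) for each of the 31 genes, circles for Granta-519 and squares for JeKo-1, filled where adjusted p was under 0.05, with dotted lines at the median of all genes tested. All JeKo-1 points lie below 0 and to the left of the Granta-519 point of the same gene, and the Granta-519 points run from -0.67 to 0.13 on the deposited scale (all above 0 with spike-in scaling).

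The alpha ring forms the gated ends of the barrel. In JeKo-1 all 7 of its genes fell, with a median log2 change of -0.79. In Granta-519 4 of 7 fell with the deposited scaling (0 with the spike-ins), with a median of -0.26. All 7 had lower shCycD1 than shCtrl libraries without overlap in JeKo-1, against 30.5% of all genes, and 6 of 7 in Granta-519, against 24.2% of all genes. None of the 31 subunits was higher in every silenced library than in every control, as 39.1% of all genes were in JeKo-1 and 29.8% in Granta-519.

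PSMA4, whose tail helps to close the gate, fell most in this ring in JeKo-1. Its JeKo-1 RPKM was 315, 322 and 327 in the shCtrl and 164, 183 and 180.2 in the shCycD1 libraries, with every silenced library far below the lowest control. The change there was -0.87 ± 0.067 (SE), adjusted p = 4.03e-05. In Granta-519 PSMA4 stood at 174, 197 and 176 in the shCtrl and 157, 137 and 149 in the shCycD1 libraries, without overlap, and fell by 19.02% (adjusted p = 0.026). Leaving out shCtrl replicate 2, shCycD1 replicate 2 or shCycD1 replicate 3 of Granta-519 ended that call (adjusted p = 0.053, 0.0763 and 0.0669).

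PSMA3, another alpha subunit, had JeKo-1 RPKM of 95.6, 104 and 105 in the shCtrl and 52.6, 58.7 and 58.7 in the shCycD1 libraries. The silenced libraries lay well apart from the controls, with a log2 change of -0.84 ± 0.077 (SE), adjusted p = 8.95e-05. Granta-519 RPKM of PSMA3 was 43.9, 45.7 and 42.7 in the shCtrl and 40.3, 33.9 and 36.4 in the shCycD1 libraries. The drop there was small, -0.26 ± 0.083 (SE), adjusted p = 0.0442, and the call was lost without any one of 5 of the 6 libraries (all but shCycD1 replicate 1), with adjusted p between 0.0685 and 0.118.

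PSMA7 had a called fall in each line. It was at 314, 308 and 282 in the shCtrl and 165, 185 and 161 in the shCycD1 libraries RPKM in JeKo-1, a change of -0.82 ± 0.079 (SE), adjusted p = 0.000108. Its Granta-519 values were 236, 234 and 220.4 in the shCtrl and 168, 162 and 191 in the shCycD1 libraries, a change of -0.41 ± 0.083 (SE), adjusted p = 0.00813. The groups did not overlap, and the Granta-519 call held without any 1 library.

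PSMA1 had the lowest shCtrl mean of the 31 genes in Granta-519 per kilobase of genomic span (in the shCycD1 libraries PSMD1 was lower), at 10.4, 12.4 and 10.7 in the shCtrl and 8.73, 7.97 and 9.18 in the shCycD1 libraries. Its change there was -0.35 ± 0.097 (SE), adjusted p = 0.0264, and was no longer called without shCycD1 replicate 1 (adjusted p = 0.0735) or shCycD1 replicate 2 (0.0781). JeKo-1 libraries held PSMA1 at 249, 271 and 242 in the shCtrl and 151, 165 and 158 in the shCycD1 libraries. All silenced libraries were lower, and PSMA1 fell by 37.6% (adjusted p = 0.000162).

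PSMA2 passed the test in JeKo-1 and not in Granta-519. JeKo-1 RPKM of PSMA2 was 239, 253 and 251 in the shCtrl and 132, 155 and 142 in the shCycD1 libraries, a change of -0.79 ± 0.076 (SE), adjusted p = 0.000108. The Granta-519 values were 98.1, 118 and 107 in the shCtrl and 97.6, 87.2 and 103 in the shCycD1 libraries, and the silenced replicate 3 lay among the controls (log2 change -0.16, adjusted p = 0.223). PSMA6 likewise passed in JeKo-1 alone, with values of 215, 226 and 216 in the shCtrl and 135, 143 and 152 in the shCycD1 libraries and a change of -0.61 ± 0.068 (SE), adjusted p = 0.000218. The Granta-519 values of PSMA6 were 77.3, 85.03 and 76.6 in the shCtrl and 73.5, 65.6 and 74.7 in the shCycD1 libraries, lower in every silenced library but not called (log2 change -0.16, adjusted p = 0.162).

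PSMA5 had the smallest change of the ring in JeKo-1, -0.43 ± 0.078 (SE), adjusted p = 0.00206, from 62.2 ± 2.79 to 45.9 ± 3.13 RPKM (mean ± SD, n = 3). Its transcript has a GC content of 37.2%, and after a correction of each library for GC content its JeKo-1 change was -0.0057 (adjusted p = 0.957). In Granta-519 the change of PSMA5 was -0.18 (adjusted p = 0.112), with all silenced libraries below the controls.

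The beta ring holds the 3 proteolytic sites and 4 structural subunits. In JeKo-1 6 of its 7 genes fell, with a median log2 change of -0.62, and PSMB5 did not pass. In Granta-519 PSMB2 and PSMB6 fell with the deposited scaling (0 of 7 with the spike-ins) and 5 did not pass, with a median of -0.15. Every silenced library lay below every control for 2 of the 7 genes in Granta-519, against 24.2% of all genes, and for 6 in JeKo-1, against 30.5%. The groups overlapped for 5 of the 7 genes in Granta-519 and for 1 in JeKo-1. Of all genes, 18.2% fell in Granta-519 and 27.8% in JeKo-1.

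PSMB5, which carries the chymotrypsin-like site, had a JeKo-1 RPKM of 186, 181 and 164 in the shCtrl and 178, 177 and 168 in the shCycD1 libraries. The silenced and control libraries interleaved. The log2 change was -0.018 ± 0.071 (SE), adjusted p = 0.838, closest to 0 among the 31 genes, and only quantile normalization gave a call, as a rise of 0.20 (adjusted p = 0.0127). In Granta-519 PSMB5 was at 66.9, 74.2 and 68.1 in the shCtrl and 73.6, 68.2 and 71.4 in the shCycD1 libraries, also interleaved, with a change of 0.028 ± 0.071 (SE), adjusted p = 0.781. With the spike-ins PSMB5 was called there as a rise of 0.77 (adjusted p = 0.0147).

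PSMB6, the caspase-like subunit, fell in both lines. JeKo-1 RPKM of PSMB6 was 185, 173 and 153 in the shCtrl and 115, 119 and 121 in the shCycD1 libraries, the silenced libraries lying closer to each other than the controls did. Its change was -0.52 ± 0.082 (SE), adjusted p = 0.0012. Granta-519 libraries held it at 157, 169.9 and 153 in the shCtrl and 127, 114 and 129 in the shCycD1 libraries, a change of -0.38 ± 0.079 (SE), adjusted p = 0.0096, which held without any 1 library.

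PSMB7, the trypsin-like subunit, differed between the lines. It was at 255, 258 and 246 in the shCtrl and 162, 173 and 159 in the shCycD1 libraries RPKM in JeKo-1 and fell by 34.8% (adjusted p = 0.000145). In Granta-519 it was at 43.9, 39.1 and 41.4 in the shCtrl and 42.99, 42.9 and 40.3 in the shCycD1 libraries, with controls and silenced libraries mixed and a log2 change of 0.023 (adjusted p = 0.827). The joint test of the difference between these changes gave 0.64 ± 0.092 (SE), adjusted p = 0.000255.

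PSMB2, a structural beta subunit, had the largest fall of the 31 genes in Granta-519 on the deposited scale. Its Granta-519 RPKM was 50.7, 54.9 and 49.8 in the shCtrl and 33.3, 30.1 and 33.96 in the shCycD1 libraries, a change of -0.67 ± 0.078 (SE), adjusted p = 0.000959, or 0.076 with the spike-ins. JeKo-1 values of PSMB2 were 51.95, 52.4 and 46.5 in the shCtrl and 27.3, 27.4 and 29.2 in the shCycD1 libraries, a change of -0.83 ± 0.077 (SE), adjusted p = 9.39e-05. On the deposited scale the difference between the lines, 0.17, was not called (adjusted p = 0.226). With the spike-ins it was 1.03 and was called (adjusted p = 0.0426).

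PSMB4, whose tail reaches across to the opposite beta ring, had the highest mean RPKM of the 31 genes in each line. In Granta-519 that value is per kilobase of genomic span, so it does not rank the abundance of transcripts. JeKo-1 RPKM of PSMB4 was 426, 416 and 369 in the shCtrl and 287, 285 and 273 in the shCycD1 libraries, a change of -0.52 ± 0.074 (SE), adjusted p = 0.000722. In Granta-519 it was 1368, 1485 and 1298 in the shCtrl and 1321, 1154 and 1258 in the shCycD1 libraries per kilobase of genomic span, with silenced replicate 1 inside the control range (log2 change -0.15, adjusted p = 0.21).

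PSMB1 and PSMB3 complete the ring. PSMB1 had JeKo-1 RPKM of 249.8, 266 and 243 in the shCtrl and 147, 160.04 and 166 in the shCycD1 libraries, a change of -0.68 ± 0.073 (SE), adjusted p = 0.000177. The Granta-519 values of PSMB1, 118, 129 and 121 in the shCtrl and 113, 103 and 121 in the shCycD1 libraries, overlapped (log2 change -0.13, adjusted p = 0.258). PSMB3 went the same way in JeKo-1, where it stood at 254, 243 and 220.02 in the shCtrl and 145, 167 and 150.3 in the shCycD1 libraries and changed by -0.63 ± 0.085 (SE), adjusted p = 0.000519. In Granta-519 PSMB3 was at 86.7, 99.7 and 86.3 in the shCtrl and 82.9, 73.2 and 90.6 in the shCycD1 libraries, again with overlap (log2 change -0.15, adjusted p = 0.297).

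Each constitutive catalytic subunit has an interferon-inducible counterpart that replaces it in the immunoproteasome, and lymphoid cells express both sets. In JeKo-1 PSMB10, the counterpart of PSMB7, rose from 117, 102 and 95.2 to 151, 138 and 145 RPKM, a change of 0.47 ± 0.089 (SE), adjusted p = 0.00285. PSMB8, the counterpart of PSMB5, rose from 117, 105 and 103 to 143, 139.9 and 132, a change of 0.35 ± 0.074 (SE), adjusted p = 0.0045. PSMB9, the counterpart of PSMB6, did not pass, at 39.4, 35.7 and 32.3 in the shCtrl and 40.2, 37.6 and 38.6 in the shCycD1 libraries (log2 change 0.12, adjusted p = 0.272). After the GC correction PSMB10 changed by 0.13 (adjusted p = 0.0767) and PSMB8 by 0.17 (adjusted p = 0.0326). With the spike-ins neither rise was called, at 0.34 (adjusted p = 0.486) for PSMB10 and 0.23 (adjusted p = 0.66) for PSMB8.

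In Granta-519 PSMB8 and PSMB9 fell with the deposited scaling, and their estimates were 0.37 and 0.31 with the spike-ins. PSMB8 was at 379, 463 and 379 in the shCtrl and 308, 301 and 326 in the shCycD1 libraries, a change of -0.38 ± 0.097 (SE), adjusted p = 0.0202, which was no longer called without shCycD1 replicate 1 (adjusted p = 0.0673) or shCycD1 replicate 2 (0.0616). PSMB9 was at 79.1, 85.4 and 76.7 in the shCtrl and 64.9, 59.9 and 53.6 in the shCycD1 libraries, a change of -0.44 ± 0.090 (SE), adjusted p = 0.00887. PSMB10 did not pass there (log2 change 0.12, adjusted p = 0.306). The difference between the lines was called for all 3 genes, at -0.73 for PSMB8, -0.55 for PSMB9 and -0.34 for PSMB10 (Granta-519 minus JeKo-1, adjusted p = 0.000743, 0.00471 and 0.0489), whereas with the spike-ins these differences were 0.14, 0.31 and 0.53 and none was called. The PSMB10 difference was close to the threshold and lost its call under 16 of 24 alternatives, among them the GC correction (-0.030, adjusted p = 0.827) and leaving out any single library but Granta-519 shCtrl replicate 3 and JeKo-1 shCtrl replicate 1. PSMB8 and PSMB9 stand on 8 rows each in both tables, of which the highest was used, and reads that fit several copies could have been divided among them.

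Ratios within a library do not depend on its scaling factor. The log2 ratio of PSMB9 to PSMB6 in JeKo-1 went from -2.23 ± 0.022 to -1.60 ± 0.077 (SD, n = 3), that of PSMB10 to PSMB7 from -1.27 ± 0.13 to -0.18 ± 0.12, and that of PSMB8 to PSMB5 from -0.71 ± 0.069 to -0.34 ± 0.019. None of these 3 ratios overlapped between the groups. In Granta-519 the PSMB9 to PSMB6 ratio changed by -0.060 and the PSMB10 to PSMB7 ratio by 0.10, both with overlap. The PSMB8 to PSMB5 ratio fell there from 2.53 ± 0.088 to 2.13 ± 0.063, without overlap. These ratios follow from the genes' own changes and were given no test. GC content, with which JeKo-1 changes rose over all genes, is 60.1% for PSMB10 and 49.9% for PSMB7, 55.3% for PSMB8 and 51.9% for PSMB5, and 53.9% for PSMB9 and 54.5% for PSMB6, and its part in the ratios was not tested.

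**Figure D2:**
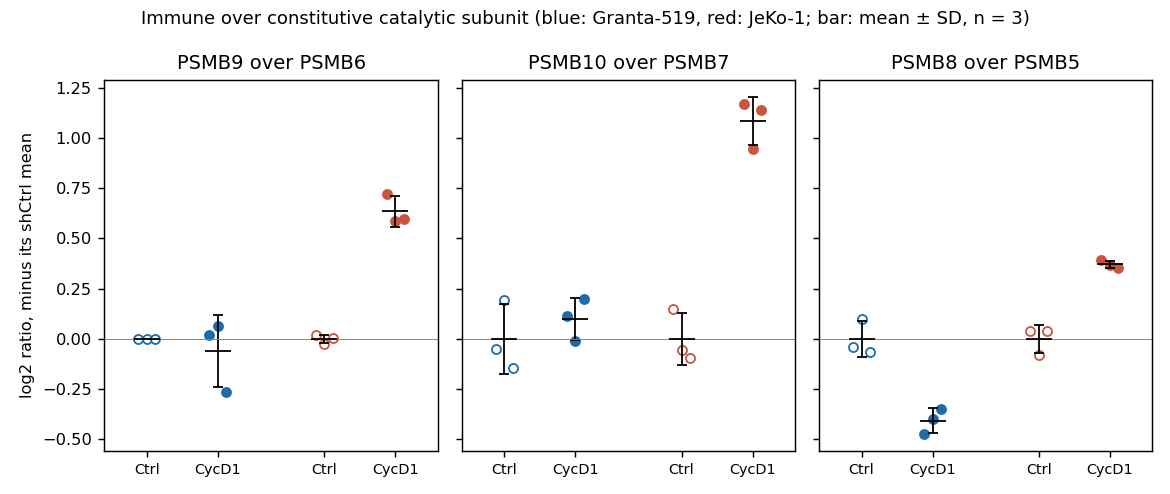
Log2 ratio of each immune catalytic subunit to its constitutive counterpart in every library, minus the mean of the line's shCtrl libraries (open points shCtrl, filled points shCycD1, bars mean ± SD, n = 3). In JeKo-1 all 3 ratios lie higher in the silenced libraries, by 0.63, 1.08 and 0.37, and in Granta-519 only the PSMB8 to PSMB5 ratio separates, lower by 0.41.

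The ATPase ring powers unfolding, and the tails of PSMC1, PSMC3 and PSMC4 open the gate of the core. In JeKo-1 all 6 of its genes fell without overlap of the groups (30.5% of all genes were lower without overlap), with a median log2 change of -0.74. In Granta-519 3 of 6 fell with the deposited scaling (0 with the spike-ins), with a median of -0.25. The difference between the lines was called for all 6, as it was for 19.3% of all genes in this direction.

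PSMC2 had the largest change of the ring in JeKo-1. Its JeKo-1 RPKM was 90.6, 99.00 and 95.1 in the shCtrl and 43.8, 49.2 and 48.2 in the shCycD1 libraries, a change of -1.004 ± 0.075 (SE), adjusted p = 3.43e-05, or -0.63 after the GC correction. In Granta-519 it was at 60.7, 62.8 and 66.2 in the shCtrl and 59.7, 49.4 and 58.6 in the shCycD1 libraries, lower in every silenced library but not called (log2 change -0.18, adjusted p = 0.158). The difference between the lines was 0.82 ± 0.12 (SE), adjusted p = 0.000245.

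PSMC3 fell in both lines, and only PSMB2 fell more in Granta-519. JeKo-1 RPKM of PSMC3 was 224, 213 and 217 in the shCtrl and 107, 125 and 112 in the shCycD1 libraries, a change of -0.93 ± 0.077 (SE), adjusted p = 5.77e-05. Granta-519 RPKM of PSMC3 was 203, 210.4 and 202 in the shCtrl and 134, 127 and 152 in the shCycD1 libraries, a change of -0.58 ± 0.082 (SE), adjusted p = 0.00206. In each line the lowest control stood far above the highest silenced library.

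PSMC5, at 162, 150.2 and 156 in the shCtrl and 85.97, 93.2 and 88.7 in the shCycD1 libraries RPKM in JeKo-1, changed by -0.80 ± 0.066 (SE), adjusted p = 5.29e-05. Its Granta-519 values, 207, 220.1 and 196 in the shCtrl and 187, 161 and 179 in the shCycD1 libraries, did not overlap, but the change of -0.24 missed the threshold (adjusted p = 0.0555). It was called with quantile normalization (-0.26, adjusted p = 0.0183), library weights (-0.21, adjusted p = 0.0143) and the GC correction (-0.27, adjusted p = 0.0322). PSMC1 was at 221, 201 and 218 in the shCtrl and 134, 143 and 142 in the shCycD1 libraries in JeKo-1, a change of -0.61 ± 0.067 (SE), adjusted p = 0.000202. In Granta-519 PSMC1 was at 42.1, 40.7 and 42.6 in the shCtrl and 36.7, 31.8 and 36.4 in the shCycD1 libraries and changed by -0.25 ± 0.079 (SE), adjusted p = 0.0389. The PSMC1 call in Granta-519 was lost without any single one of the 6 libraries, with adjusted p between 0.0501 and 0.106.

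PSMC6 was at 63.6, 77.2 and 70.5 in the shCtrl and 37.9, 50.8 and 43.3 in the shCycD1 libraries in JeKo-1, without overlap. Its change there, -0.68 ± 0.12 (SE), adjusted p = 0.00218, had the largest SE of the 31 genes, and was -0.23 (adjusted p = 0.0586) after the GC correction, its transcript having the lowest GC content of the 31, 36.8%. In Granta-519 PSMC6 was at 24.4, 25.7 and 27.8 in the shCtrl and 21.3, 20.5 and 23.2 in the shCycD1 libraries, a change of -0.26 ± 0.083 (SE), adjusted p = 0.0466. Leaving out any single Granta-519 library ended that call (adjusted p between 0.0544 and 0.132).

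PSMC4 had opposite signs in the lines. It fell in JeKo-1, where it was at 50.96, 48.7 and 48.4 in the shCtrl and 37.2, 39.9 and 36.6 in the shCycD1 libraries, a change of -0.38 ± 0.069 (SE), adjusted p = 0.00228. In Granta-519 it was at 140.5, 140.4 and 138 in the shCtrl and 152, 140.1 and 156 in the shCycD1 libraries, with 1 silenced library inside the control range and a log2 change of 0.094 that was not called (adjusted p = 0.302). The difference between the lines was 0.47 ± 0.089 (SE), adjusted p = 0.0015.

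**Figure D3:**
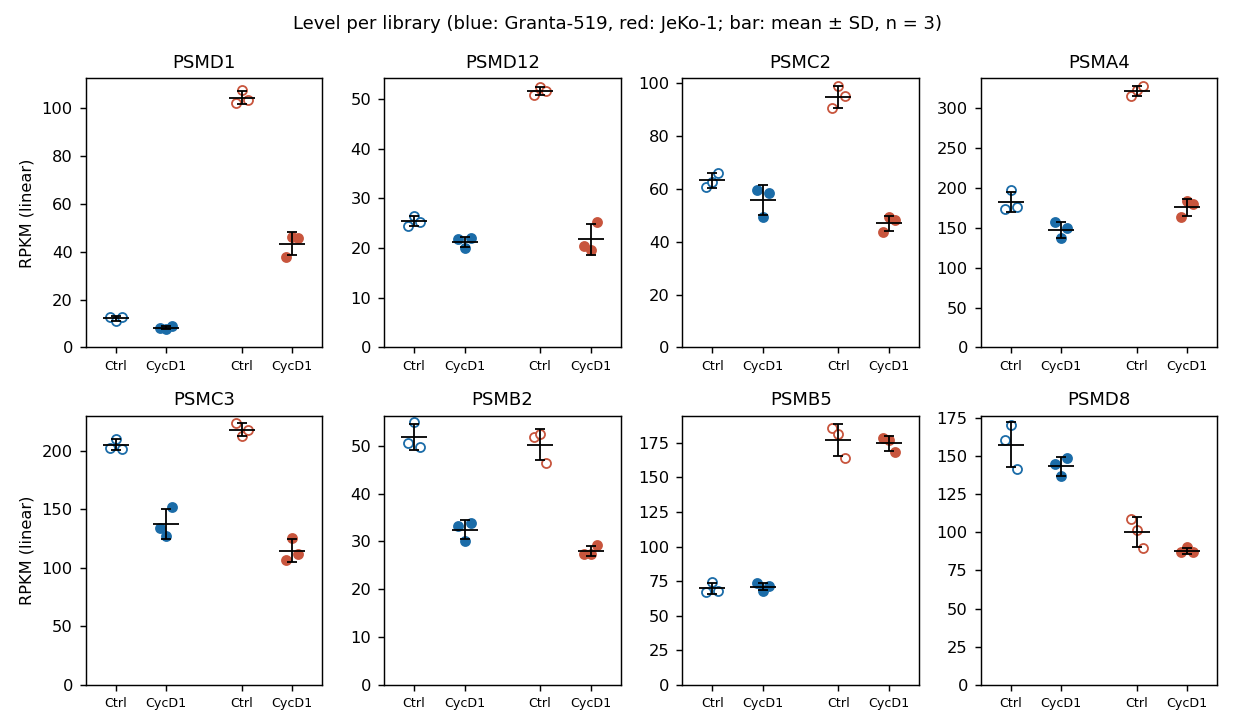
RPKM per library for 8 subunit genes (open points shCtrl, filled points shCycD1, bars mean ± SD, n = 3), with Granta-519 in blue and JeKo-1 in red on a linear axis from 0. For PSMD1, PSMD12, PSMC2, PSMA4, PSMC3 and PSMB2 the silenced libraries lie below the controls in both lines on the deposited scale, for PSMB5 and PSMD8 the groups overlap, and levels are not comparable between the lines because the gene lengths used may differ.

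The remaining 11 genes encode the scaffolds, ubiquitin receptor and lid of the regulatory particle. In JeKo-1 9 of them fell, with a median log2 change of -0.56, and PSMD4 and PSMD8 did not pass. In Granta-519 6 fell with the deposited scaling (0 with the spike-ins) and 5 did not pass, with a median of -0.25. The changes were uneven, from -1.26 to -0.12 in JeKo-1 and from -0.53 to 0.13 in Granta-519.

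PSMD1, a scaffold of the base, had the largest change of the 31 genes in JeKo-1. Its JeKo-1 RPKM was 102, 107 and 103 in the shCtrl and 37.96, 46.3 and 45.9 in the shCycD1 libraries, with each silenced library far below the lowest control, and it fell by 58.3%. The change was -1.26 ± 0.091 (SE), adjusted p = 2.97e-05, and -1.09 after the GC correction. In Granta-519 PSMD1 was at 12.6, 10.98 and 12.9 in the shCtrl and 8.03, 7.92 and 8.95 in the shCycD1 libraries, a change of -0.52 ± 0.095 (SE), adjusted p = 0.00512, which held without any 1 library.

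PSMD12, a lid subunit, was a close second in JeKo-1. It stood at 50.7, 52.4 and 51.6 in the shCtrl and 20.4, 19.6 and 25.2 in the shCycD1 libraries, with the controls close together, and changed by -1.23 ± 0.10 (SE), adjusted p = 6.03e-05, or by -0.83 after the GC correction. Granta-519 libraries held PSMD12 at 24.4, 26.5 and 25.3 in the shCtrl and 21.8, 20.04 and 21.95 in the shCycD1 libraries, a change of -0.25 ± 0.073 (SE), adjusted p = 0.0317. That smaller fall was not called without any 1 of the 6 libraries (adjusted p between 0.0593 and 0.0911), and the difference between the lines was the largest of the 31, 0.98 ± 0.13 (SE), adjusted p = 0.00013.

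Promoters are shown for the 3 genes with the largest JeKo-1 falls (PSMD1, PSMC2 and PSMD12) and for PSMB5 and PSMD8, which did not pass in either line on the deposited scale. Each sequence is the 250 bases before the start of the RefSeq gene model on build GRCh38.p14, read 5′ to 3′ on the strand of the gene, and capitals mark matches on either strand to CCAAT, to the ETS site CCGGAAG or to the antioxidant response element that NFE2L1 can bind, TGACNNNGC or TGAGNNNGC. The regions are chr2:231056617-231056866 (plus strand) for PSMD1, chr7:103347393-103347642 (plus) for PSMC2, chr17:67366578-67366827 (minus) for PSMD12, chr14:23035221-23035470 (minus) for PSMB5 and chr19:38374321-38374570 (plus) for PSMD8.
PSMD1: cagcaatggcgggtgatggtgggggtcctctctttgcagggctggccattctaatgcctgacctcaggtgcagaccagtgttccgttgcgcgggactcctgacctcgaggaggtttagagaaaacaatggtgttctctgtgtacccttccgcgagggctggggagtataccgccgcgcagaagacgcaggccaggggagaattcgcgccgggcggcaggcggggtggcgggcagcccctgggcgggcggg
PSMC2: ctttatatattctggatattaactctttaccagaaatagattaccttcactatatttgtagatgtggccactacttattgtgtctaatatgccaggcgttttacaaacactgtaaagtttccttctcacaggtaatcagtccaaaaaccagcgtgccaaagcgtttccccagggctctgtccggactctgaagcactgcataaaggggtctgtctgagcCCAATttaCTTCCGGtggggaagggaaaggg
PSMD12: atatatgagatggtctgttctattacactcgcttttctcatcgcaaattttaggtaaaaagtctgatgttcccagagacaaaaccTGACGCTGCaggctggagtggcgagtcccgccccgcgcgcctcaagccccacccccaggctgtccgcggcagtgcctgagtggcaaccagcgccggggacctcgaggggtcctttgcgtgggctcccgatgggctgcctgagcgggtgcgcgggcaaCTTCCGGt
PSMB5: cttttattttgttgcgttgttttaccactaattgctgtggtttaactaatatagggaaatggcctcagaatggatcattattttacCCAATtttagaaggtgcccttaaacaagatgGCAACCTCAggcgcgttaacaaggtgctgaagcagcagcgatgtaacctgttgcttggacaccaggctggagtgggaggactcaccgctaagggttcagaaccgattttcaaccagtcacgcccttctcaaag
PSMD8: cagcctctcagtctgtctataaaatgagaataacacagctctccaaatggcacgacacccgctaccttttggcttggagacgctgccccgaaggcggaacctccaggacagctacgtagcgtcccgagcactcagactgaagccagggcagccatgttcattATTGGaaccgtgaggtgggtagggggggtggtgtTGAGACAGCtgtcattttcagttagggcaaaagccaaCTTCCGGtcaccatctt
PSMD1 held none of these letters in this window, PSMC2 held CCAAT and the ETS site, PSMD12 the ETS site and TGACNNNGC, PSMB5 CCAAT and TGAGNNNGC, and PSMD8 all of CCAAT, the ETS site and TGAGNNNGC. The genes that fell most and those that did not pass shared part of these matches.

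A promoter was matched for 26 of the 31 genes, all but PSMA7, PSMB1, PSMB6, PSMB7 and PSMD4. For 24 of the 26, bases just after the start were found in a transcript of the gene. CCAAT was present in 13 of the 26 (50%), against 32.01% of 35116 promoter windows of that length. Those windows were not selected by expression or gene type, so they are no matched background for the expressed, protein-coding subunits. The ETS site was in 6 (23.1%), against 8.52%. Either form of the antioxidant response element was in 9 (34.6%), against 23.9%. The cell cycle homology region TTTGAA was in 3 (11.5%, against 13.3%), the E2F site TTTCCCGC in 2 (7.69%, against 1.39%), TTTGGCGC in 0 (0.550% of all) and the E-box CACGTG in 1 (3.85%, against 6.34%). Genes with either antioxidant form had a median log2 change of -0.63 in JeKo-1, against -0.68 for those without, and -0.18 against -0.25 in Granta-519. These matches describe letters in the windows and say nothing of binding.

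PSMD2, the other scaffold of the base, fell in both lines on the deposited scale. JeKo-1 RPKM of PSMD2 was 156, 143 and 145 in the shCtrl and 101, 109.5 and 107 in the shCycD1 libraries, a change of -0.48 ± 0.068 (SE), adjusted p = 0.000675. Granta-519 values were 245, 199 and 241 in the shCtrl and 164, 175 and 176 in the shCycD1 libraries, a change of -0.40 ± 0.097 (SE), adjusted p = 0.0157, no longer called without shCtrl replicate 1 (adjusted p = 0.0569) or shCycD1 replicate 1 (0.0601). The difference of 0.078 was not called (adjusted p = 0.626), nor was that of 0.95 with the spike-ins. PSMD4, the ubiquitin receptor of the base, was at 181, 151 and 163 in the shCtrl and 148, 155 and 150.3 in the shCycD1 libraries in JeKo-1, with overlap, and did not pass (-0.12 ± 0.079, adjusted p = 0.202), though it was called after the GC correction (-0.24, adjusted p = 0.0156). Its Granta-519 change was 0.028 (adjusted p = 0.81).

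PSMD3, a lid subunit, had Granta-519 RPKM of 118, 111 and 108 in the shCtrl and 77.9, 77.1 and 78.3 in the shCycD1 libraries, the silenced libraries lying close together. Its change of -0.53 ± 0.064 (SE), adjusted p = 0.00111, held without any 1 library, and was among the 3 largest in this line. JeKo-1 libraries held PSMD3 at 119, 116 and 109 in the shCtrl and 74.8, 76.9 and 71.01 in the shCycD1 libraries, a change of -0.63 ± 0.068 (SE), adjusted p = 0.000197. The lines did not differ at the threshold (0.098, adjusted p = 0.4), nor with the spike-ins (0.97). After the GC correction the difference was called (adjusted p = 0.00453).

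PSMD11, the lid subunit that clamps the base to the core, had the lowest shCtrl mean of the 31 transcripts in JeKo-1 (in the shCycD1 libraries PSMD12 was lower), at 41.5, 46.5 and 42.8 in the shCtrl and 24.2, 25.8 and 27.1 in the shCycD1 libraries. It changed there by -0.75 ± 0.080 (SE), adjusted p = 0.000174. In Granta-519 it was at 44.9, 39.3 and 44.3 in the shCtrl and 31.7, 29.6 and 31.8 in the shCycD1 libraries, a change of -0.46 ± 0.079 (SE), adjusted p = 0.00431, which held without any 1 library. PSMD14, the deubiquitinase that strips chains from substrates, was at 97.5, 103 and 97.4 in the shCtrl and 51.02, 60.95 and 59.7 in the shCycD1 libraries in JeKo-1, a change of -0.79 ± 0.085 (SE), adjusted p = 0.000182. Its Granta-519 values were 13.1, 13.5 and 13.2 in the shCtrl and 10.6, 9.15 and 10.5 in the shCycD1 libraries, a change of -0.39 ± 0.082 (SE), adjusted p = 0.01, which likewise held. Neither gene's groups overlapped in either line.

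PSMD7, the partner of PSMD14 in the lid, fell less. It was at 164, 171 and 159 in the shCtrl and 125, 132 and 139 in the shCycD1 libraries in JeKo-1, a change of -0.32 ± 0.068 (SE), adjusted p = 0.00443, and was not called with quantile normalization (-0.15, adjusted p = 0.115). In Granta-519 PSMD7 was at 166, 177 and 167 in the shCtrl and 167, 171 and 186 in the shCycD1 libraries, with overlap and a log2 change of 0.038 (adjusted p = 0.7). PSMD13 had JeKo-1 RPKM of 210.2, 217 and 208 in the shCtrl and 134, 154 and 144 in the shCycD1 libraries, a change of -0.56 ± 0.071 (SE), adjusted p = 0.000405. The Granta-519 values of PSMD13 were 109, 119.9 and 109 in the shCtrl and 105, 98.1 and 113 in the shCycD1 libraries, overlapping (log2 change -0.098, adjusted p = 0.368).

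PSMD6 had the highest estimate of the 31 genes in Granta-519, where it was at 31.7, 33.99 and 30.7 in the shCtrl and 36.4, 33.5 and 35.6 in the shCycD1 libraries, and it did not pass (0.13 ± 0.073, adjusted p = 0.204). It fell in JeKo-1, at 96.5, 89.8 and 89.2 in the shCtrl and 63.1, 60.6 and 63.4 in the shCycD1 libraries, a change of -0.55 ± 0.065 (SE), adjusted p = 0.000283. The difference between the lines was 0.68 ± 0.092 (SE), adjusted p = 0.000171. PSMD8, the last subunit to join the lid, was at 109, 101 and 89.7 in the shCtrl and 86.8, 90.2 and 86.9 in the shCycD1 libraries in JeKo-1, where the lowest control lay below the highest silenced library. Its change of -0.18 ± 0.084 (SE), adjusted p = 0.0971, was not called, but was without shCtrl replicate 3 (-0.26, adjusted p = 0.0231) and after the GC correction (-0.36, adjusted p = 0.00356). The Granta-519 change of PSMD8 was -0.13 (adjusted p = 0.269).

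The balance of core and regulatory particle transcripts overlapped between silenced and control libraries in both lines. In JeKo-1 the mean log2(RPKM + 0.5) of the 14 core genes went from 7.57 ± 0.055 to 6.94 ± 0.056 (SD, n = 3) and that of the 17 regulatory genes from 6.79 ± 0.023 to 6.12 ± 0.068. The core mean minus the regulatory mean was 0.79, 0.82 and 0.75 in the shCtrl and 0.83, 0.82 and 0.80 in the shCycD1 libraries, a change of 0.031 with overlap. In Granta-519 the core mean went from 6.45 ± 0.071 to 6.22 ± 0.087 and the regulatory mean from 6.09 ± 0.0073 to 5.86 ± 0.075, on the deposited scale. Their difference was 0.33, 0.43 and 0.32 in the shCtrl and 0.39, 0.34 and 0.36 in the shCycD1 libraries, a change of 0.0037, again with overlap. This difference is within a library and does not move with its scaling, but the GC correction raised the JeKo-1 change to 0.089 and quantile normalization to 0.098. Leaving out single libraries gave -0.016 to 0.041 in Granta-519, below 0 without shCtrl replicate 1 or 3 or shCycD1 replicate 1, and 0.013 (without shCtrl replicate 3) to 0.048 (without shCtrl replicate 2) in JeKo-1. Between single genes the SD of the log2 change was 0.22 over the core and 0.33 over the regulatory genes in JeKo-1. In Granta-519 it was 0.18 and 0.22.

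The size of the change differed between the lines for most subunits. In the joint fit 23 of 31 genes had a higher change in Granta-519 than in JeKo-1, 0 a lower one and 8 did not pass, against 19.3% and 22.6% of the 10653 genes tested in both. The 8 were PSMA5, PSMB2, PSMB5, PSMB6, PSMD2, PSMD3, PSMD4 and PSMD8. For all 31 the JeKo-1 estimate was the lower one, with a median difference of 0.42 against -0.019 over all genes, and of 0.32 with 18 called after the GC correction. With the spike-ins the median difference was 1.28, against 0.79 over all genes, and 27 were called. If the JeKo-1 table were log2 and not natural log, which the values do not settle, 28 subunits would still have fallen there, with a median of -0.44, and 14 differences would be called. The differences of 5 genes were lost on leaving out single libraries. For PSMA1 this held for all libraries but Granta-519 shCtrl 2 and shCycD1 2 and JeKo-1 shCtrl 3 and shCycD1 2 (highest adjusted p = 0.101). For PSMB4 it held for Granta-519 shCtrl 1 and 3 and shCycD1 1 and 3 and JeKo-1 shCtrl 1 and 2 and shCycD1 3 (0.0654). PSMC3 lost its call without Granta-519 shCtrl 1 or 3 or shCycD1 3, or JeKo-1 shCtrl 1 or shCycD1 1 or 3 (0.0686). PSMC6 lost it without any but Granta-519 shCtrl 3 and shCycD1 2 and JeKo-1 shCtrl 1 and shCycD1 2 (0.107), and PSMD11 without any but Granta-519 shCycD1 2 and JeKo-1 shCtrl 1 and shCycD1 3 (0.113).

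The genes with a called fall in Granta-519 were all among those in JeKo-1. These 15 genes are 100% of the Granta-519 falls and 53.6% of the JeKo-1 falls. With 28 of 31 subunits fallen in JeKo-1, almost any 15 would lie mostly among them, so the 100% says little about likeness of the lines. Of all genes tested in both, 13.1% fell in both. Across the 31 genes the 2 sets of changes, from separate libraries, correlated at r = 0.58 (Spearman rho 0.62), close to the 0.56 (0.56) across all genes, given as a description because the genes share libraries. The fall with the lowest adjusted p in Granta-519 was that of PSMB2, and in JeKo-1 that of PSMD1. PSMB5, PSMD4 and PSMD8 passed in neither line with the deposited scaling. With the spike-ins they were called as rises in Granta-519, at 0.77, 0.77 and 0.62.

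**Figure D4:**
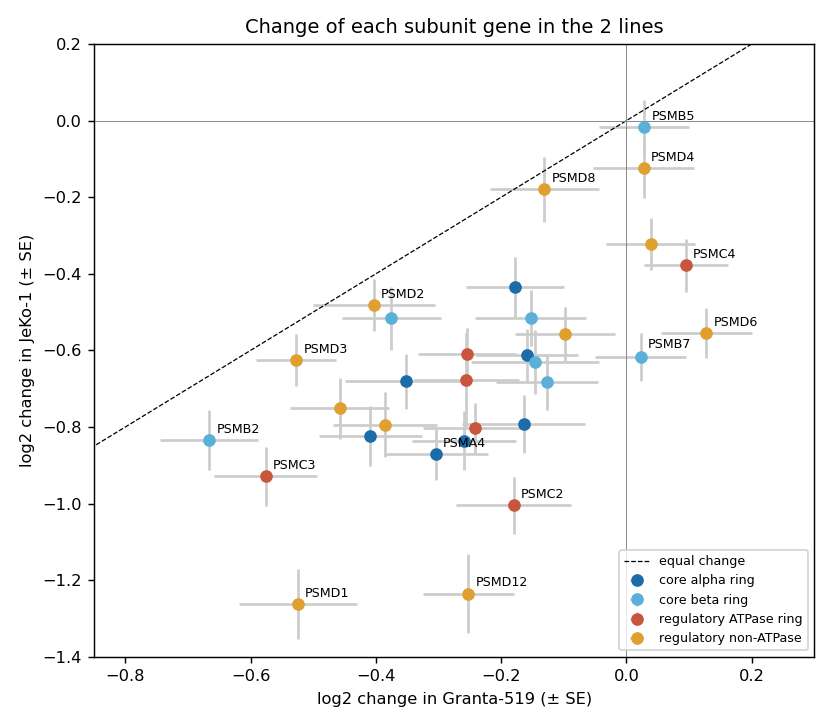
Log2 change of each subunit gene in JeKo-1 (vertical axis) against that in Granta-519 (horizontal axis, deposited scale), with bars for ± SE, colours for the ring or group, and a dashed line where the changes would be equal. All 31 points lie below the dashed line, PSMB5 and PSMD8 next to it and PSMD12 farthest from it (with spike-in scaling the Granta-519 values all move above 0).

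Changes in JeKo-1 rose with the GC content of the transcript over all genes, so GC content was set beside the subunit values. Spearman's rho between GC content and log2 change was 0.42 over the 31 subunits and 0.41 over 11495 genes in JeKo-1, and 0.050 and 0.033 in Granta-519 (over 12192 genes). Below 40% GC, 5 of 5 subunits fell in JeKo-1 against 46.0% of all genes in that range, between 45 and 50% 8 of 8 against 32.3%, and between 50 and 55% 7 of 9 against 21.4%. The median change of the subunits between 50 and 55% was -0.52, where that of all genes was 0.22. After the per-library GC correction 28 subunits fell in JeKo-1, with a median of -0.63. PSMA5 and PSMC6 were then no longer called, and PSMD4 and PSMD8 were. In Granta-519 14 fell after it, with the deposited scaling. The part of GC content in single genes' changes was not tested beyond this.

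**Figure D5:**
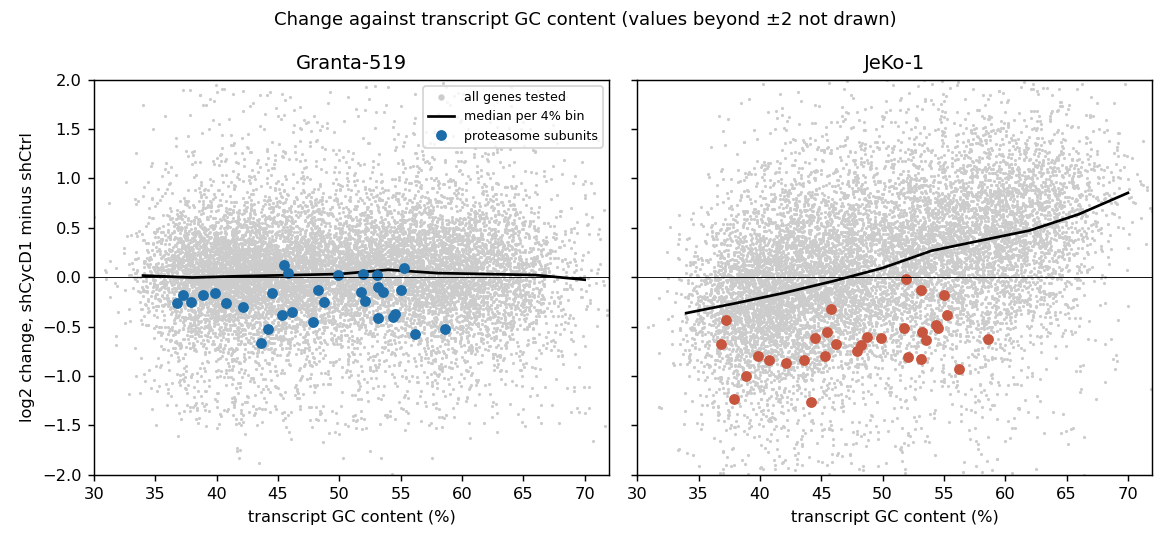
Log2 change (shCycD1 minus shCtrl) against transcript GC content in percent, grey points for all genes tested, the black line for their median in bins of 4% and large points for the subunits. The black line climbs with GC content in JeKo-1 and stays near 0 in Granta-519, and the JeKo-1 subunits lie below it, while the Granta-519 points are on the deposited scale and all lie above 0 with spike-in scaling.

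The other genes of the pathway moved less uniformly than the subunits. Of 39 tested genes on 7 lists of proteasome partners, 8 rose and 15 fell in JeKo-1, with a median log2 change of -0.11. In Granta-519 2 rose and 8 fell (deposited scaling), with a median of -0.11. Of all genes, 36.7% rose and 27.8% fell in JeKo-1, and 22.4% rose and 18.2% fell in Granta-519. With spike-in scaling only PSMG1, PSMG2, USP14, UCHL5 and TXNL1 of the 39 partners kept a called JeKo-1 change. Both further regulatory particle subunits fell in JeKo-1. ADRM1, a ubiquitin receptor, changed by -0.42 ± 0.11 (SE), adjusted p = 0.0123 there (not called with the spike-ins, adjusted p = 0.232, or with no filter on low values) and by -0.43 ± 0.096 (SE), adjusted p = 0.0122 in Granta-519 (0.32 with the spike-ins). SHFM1, the small lid subunit also called SEM1, changed by -0.60 ± 0.082 (SE), adjusted p = 0.000556 in JeKo-1 (adjusted p = 0.107 with the spike-ins) and did not pass in Granta-519 (-0.050, adjusted p = 0.824).

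NFE2L1, the factor that induces subunit genes, rose in both lines on the deposited scale, where 28 of 31 subunits fell in JeKo-1 and 15 in Granta-519. With spike-in scaling all 31 Granta-519 subunit estimates were above 0, so NFE2L1 and the subunits then moved the same way there. Granta-519 RPKM of NFE2L1 was 208, 162 and 230.2 in the shCtrl and 350.4, 362 and 354 in the shCycD1 libraries, a rise of 0.84 ± 0.13 (SE), adjusted p = 0.00263. In JeKo-1 it was at 29.6, 25.1 and 30.7 in the shCtrl and 50.5, 53.03 and 57.5 in the shCycD1 libraries, a rise of 0.91 ± 0.098 (SE), adjusted p = 0.000186, with an adjusted p of 0.0535 when scaled to the spike-ins. No silenced library overlapped a control, and the lines did not differ at the threshold (-0.064, adjusted p = 0.781). NFE2L2, a related factor of the oxidative stress response, rose in Granta-519 (0.55 ± 0.088, adjusted p = 0.00318) and did not pass in JeKo-1 (0.29 ± 0.16, adjusted p = 0.14), where it was called without shCycD1 replicate 2 (0.44, adjusted p = 0.031) and with the replicate block (adjusted p = 0.0142). NGLY1, an enzyme that processes NFE2L1 protein, rose in JeKo-1 (0.35 ± 0.12, adjusted p = 0.035). It did not pass with spike-in scaling, quantile normalization or no filter, nor without shCtrl replicate 1 or 3 or shCycD1 replicate 2 or 3 (adjusted p between 0.066 and 0.629). DDI2, the protease that cuts NFE2L1, passed in neither line (-0.40 in Granta-519 and -0.11 in JeKo-1). VCP, which extracts it from the membrane, did not pass either (-0.16 and -0.056).

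Among 9 assembly factors 4 fell and 1 rose in JeKo-1, where 27.8% of all genes fell and 36.7% rose, and 3 fell in Granta-519 with the deposited scaling, as did 18.2% of all genes. PSMG1 and PSMG2, the paired chaperones of the alpha ring, fell in both. PSMG1 was at 56.5, 59.6 and 58.1 in the shCtrl and 24.2, 22.2 and 26.6 in the shCycD1 libraries in JeKo-1, a change of -1.24 ± 0.084 (SE), adjusted p = 2.27e-05, close to that of PSMD1. In Granta-519 PSMG1 changed by -0.42 ± 0.11 (SE), adjusted p = 0.019 (0.32 with the spike-ins), a call lost without shCycD1 replicate 2 (adjusted p = 0.0596) or 3 (0.0597). PSMG2 changed by -0.76 ± 0.064 (SE), adjusted p = 6.34e-05 in JeKo-1 and -0.32 ± 0.094 (SE), adjusted p = 0.0344 in Granta-519 (0.36 with the spike-ins), the latter lost without any 1 of its 6 libraries (adjusted p between 0.0556 and 0.0951). POMP, which guides the beta ring, fell in JeKo-1 (-0.48 ± 0.095, adjusted p = 0.00347), but its transcript has a GC content of 34.6% and its change was 0.043 (adjusted p = 0.675) after the GC correction. PSMD10, a chaperone of the ATPase ring, also fell in JeKo-1 (-0.36 ± 0.098, adjusted p = 0.0144), but not with the spike-ins (adjusted p = 0.27), after the GC correction (-0.079, adjusted p = 0.416) or without shCycD1 replicate 1 (adjusted p = 0.0514). PSMG4 rose in JeKo-1 (0.41 ± 0.11, adjusted p = 0.0122; adjusted p = 0.504 with the spike-ins). PSMD5, which like PSMD10 acts on the ATPase ring, fell in Granta-519 (-0.48 ± 0.080, adjusted p = 0.00383, 0.22 with the spike-ins) and did not pass in JeKo-1 (-0.097).

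The activators split in JeKo-1. PSME1, a subunit of the interferon-inducible cap, rose from 203, 211 and 187 to 285, 294 and 266 RPKM (0.49 ± 0.074, adjusted p = 0.00087), and PSMF1, known as an inhibitor of the core, rose as well (0.32 ± 0.077, adjusted p = 0.00848). PSME3 and PSME4, nuclear caps, fell (-0.46 ± 0.061, adjusted p = 0.000496, and -0.56 ± 0.11, adjusted p = 0.00334). None of these 4 calls held with the spike-ins (adjusted p = 0.466 for PSME1, 0.701 for PSMF1, 0.188 for PSME3 and 0.0994 for PSME4). PSME2 did not pass (0.095), and none of the 5 passed in Granta-519. The testis-restricted alpha subunit PSMA8 was detected in both lines. In Granta-519 it was at 21.05, 21.7 and 20.7 in the shCtrl and 8.72, 9.53 and 9.10 in the shCycD1 libraries, a change of -1.17 ± 0.071 (SE), adjusted p = 0.000167 (-0.45, not called, with the spike-ins), and in JeKo-1 it did not pass (-0.23, adjusted p = 0.0777). PSMB11, the thymus subunit, was at 0 in all libraries but 1.

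Of 9 genes for proteins that dock on the proteasome 6 fell and 1 rose in JeKo-1, against 27.8% and 36.7% of all genes, and 1 fell in Granta-519 with the deposited scaling, against 18.2%. USP14, a deubiquitinase on the base, was that gene, and changed by -0.45 ± 0.076 (SE), adjusted p = 0.00402 in Granta-519 (0.26 with the spike-ins) and -0.95 ± 0.092 (SE), adjusted p = 0.000111 in JeKo-1. UCHL5, the deubiquitinase held by ADRM1, fell in JeKo-1 (-0.86 ± 0.092, adjusted p = 0.000179) and did not pass in Granta-519 (-0.17). UBQLN2, a shuttle that brings substrates, was the gene that rose in JeKo-1 (0.28 ± 0.10, adjusted p = 0.0439). Quantile normalization (0.20, adjusted p = 0.102), spike-in scaling (0.16, adjusted p = 0.741) and testing with no filter (adjusted p = 0.082) each ended this call, as did fits without any 1 of the JeKo-1 libraries but shCtrl replicate 2 (adjusted p between 0.0615 and 0.143). Of the 5 genes for ubiquitin and its activating enzyme, UBB fell in JeKo-1 (-0.27 ± 0.10, adjusted p = 0.0479) with overlapping groups, and none passed in Granta-519. UBB did not pass with the spike-ins (adjusted p = 0.46), after quantile normalization (-0.053, adjusted p = 0.573), without shCtrl replicate 1 or 2 or shCycD1 replicate 2 or 3 (adjusted p between 0.0852 and 0.142), and with no filter, a mean RPKM of 5, no trend or library weights. Ubiquitin genes have near-identical copies, so their values are uncertain. Several subunit genes have processed pseudogenes, which stand on 0 rows under the subunits' names in either table, and the sources used here do not say how reads that fit both were counted.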

How the data were processed

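RNA of 12 libraries (4 groups of 3, grouped and numbered by sample title) was measured as 1 table per line. The authors deposited log values, here taken as natural log of (RPKM + 1) and turned back to RPKM. In Granta-519, 81.5 to 84.8% of low values times genomic span were whole multiples of 1 step in natural log (tolerance 0.1), against at most 58.9% in other bases. In JeKo-1 no base gave over 38.9%, and the natural log is inferred from the spike-ins, whose SD relative to Granta-519 was 0.964 (0.730 in base 2). The JeKo-1 length is not settled either. In natural log 36.9 to 38.9% were whole multiples with transcript length and 27.5 to 32.4% with genomic span. FastQC, TopHat2 2.1.1, limma 3.9 and the builds GRCh37 and hg19 are named, per the submitters' processing notes; the sources used here name no counter or gene annotation.

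With 1 row per symbol (the highest mean), each line was fitted with limma 3.58.1 (R 4.3.3, trend) on log2(RPKM + 0.5), for genes at RPKM 1 or more in at least 3 of 6 libraries, 12668 for Granta-519 and 11866 for JeKo-1. The difference came from a joint fit of 10653. Benjamini-Hochberg adjusted p under 0.05 was called, and the code was tested on simulated data. Symbols were matched to GENCODE transcripts on GRCh38 for length and GC content (94.5% of 23708) and to RefSeq promoters. Values were given per library for subunits called in both lines or for the difference, the 5 with the lowest adjusted p in each line, the catalytic subunits and the highest and lowest in level; other genes were named from lists of proteasome partners and cell markers, of which 1 gene is not reported here and not counted. The members and lists were chosen with earlier results of these data known. Alternatives changed scaling (quantile, spike-ins, GC content by loess with span 0.5), pseudocount (0.1 and 1), filter (none, or mean RPKM of 5), model, replicate block, rows per symbol, JeKo-1 log base and libraries. Counting intervals were not computed, since depth is unknown.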

Additional observations from a re-analysis of the deposited data

Results flagged for a closer look

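For 23 subunits and 17 other genes the joint limma fit called the change in Granta-519 different from that in JeKo-1. Values below are the Granta-519 log2 change minus the JeKo-1 log2 change, so that a positive value means a deeper fall, or a smaller rise, in JeKo-1. The alpha ring genes gave 0.33 for PSMA1, 0.63 for PSMA2, 0.58 for PSMA3, 0.57 for PSMA4, 0.45 for PSMA6 and 0.42 for PSMA7. Beta ring values were 0.56 for PSMB1, 0.48 for PSMB3, 0.36 for PSMB4 and 0.64 for PSMB7. All 6 ATPases were among them, with 0.35 for PSMC1, 0.82 for PSMC2, 0.35 for PSMC3, 0.47 for PSMC4, 0.56 for PSMC5 and 0.42 for PSMC6. The non-ATPase subunits gave 0.74 for PSMD1, 0.68 for PSMD6, 0.36 for PSMD7, 0.29 for PSMD11, 0.98 for PSMD12, 0.46 for PSMD13 and 0.41 for PSMD14.

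Among the partners, SHFM1 differed by 0.55, PSME3 by 0.42, PSME4 by 0.64, PSMG1 by 0.82, PSMG2 by 0.44, PSMD10 by 0.57, USP14 by 0.50, UCHL5 by 0.68 and TXNL1 by 0.57. The opposite sign, a higher change in JeKo-1, was seen for PSMB8 (-0.73), PSMB9 (-0.55), PSMB10 (-0.34), PSMA8 (-0.94), PSME1 (-0.36), PSMG4 (-0.63) and PSMD5 (-0.38). The targeted gene CCND1 also differed, by 0.55, having fallen further in JeKo-1, but lost this call under 9 of 24 alternatives (quantile normalization, no filter, and without Granta-519 shCtrl replicate 1 or 3, Granta-519 shCycD1 replicate 2 or 3, JeKo-1 shCtrl replicate 1 or JeKo-1 shCycD1 replicate 1 or 2) and turned to -0.16 with JeKo-1 read as log2. With spike-in scaling the differences of PSMB8, PSMB9, PSMB10, PSME1, PSMG4 and PSMD5 had the other sign and were not called, and that of PSMA8 was -0.11 and not called. The SHFM1 difference was lost under 12 of 24 alternatives, PSMB10 under 16 and PSME1 under 11, each including no filter, the replicate block, the GC correction, the log2 reading and single libraries left out. The GC correction also ended the calls of PSME4, PSMD10, USP14, UCHL5 and TXNL1, and the log2 reading those of PSME4, PSMG2, USP14 and TXNL1.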

How the results depend on the processing

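Depth is unknown in JeKo-1 and uncertain in Granta-519, so a limit on low values cannot be given, but all 31 subunits stood above an RPKM of 7 in every library. The cause of the changes below was not tested. Spike-in scaling took the 15 falls in Granta-519 to 0 and the 0 rises to 10, with a median of 0.51, and left 12 of 28 falls in JeKo-1, with a median of -0.75 and an all-gene median of -0.032. Quantile normalization gave 13 of 23 called differences, 1 rise in JeKo-1 (PSMB5, 0.20), a JeKo-1 median of -0.46 and a core minus regulatory change of 0.098 there, and the GC correction 0.089. Read as log2, the JeKo-1 table gave 14 called differences and a median of -0.44. Library weights gave 1 rise in Granta-519 (PSMD6) and a median of -0.16. Leaving out single libraries gave 9 to 11 falls in Granta-519, the lowest without shCycD1 replicate 2, and a median of -0.25 to -0.18. In JeKo-1 it gave 28 to 29 falls and a median of -0.69 to -0.61, and it gave 18 to 24 called differences.

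Leaving the spike-ins aside, 8 of 15 Granta-519 falls and 25 of 28 JeKo-1 falls were kept under every alternative. With the spike-ins 0 of the Granta-519 falls and 12 of those 25 JeKo-1 falls held. Of the 23 differences 11 were kept under every alternative, the spike-ins included. Pseudocounts of 0.1 and 1, summed rows and a mean RPKM of 5 or more changed no subunit's call within a line.

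With the replicate number as a block, 9 subunits fell in Granta-519, 28 in JeKo-1 and 20 differences were called. Same-numbered libraries deviated together at correlations of 0.0055, -0.12 and 0.033 in Granta-519 and 0.19, 0.095 and 0.10 in JeKo-1, so the numbers were not taken to pair libraries, although in JeKo-1 each library correlated best with its own number.

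With spike-in scaling these Granta-519 changes turned positive, none of them called: PSMA1 0.36, PSMA3 0.48, PSMA4 0.44, PSMA7 0.34, PSMB2 0.076, PSMB6 0.37, PSMC1 0.49, PSMC3 0.17, PSMC6 0.48, PSMD1 0.19, PSMD2 0.35, PSMD3 0.22, PSMD11 0.28, PSMD12 0.48, PSMD14 0.33, ADRM1 0.32, PSMB8 0.37, PSMB9 0.31, PSMD5 0.22, PSMG1 0.32, PSMG2 0.36 and USP14 0.26. Others turned from below 0 to a called rise, namely PSMB1 0.62, PSMB4 0.60, PSMD8 0.62, PSMD13 0.65, POMP 0.69, PSME3 0.71, SHFM1 0.69 and UBB 0.74. The 6 subunits already above 0 on the deposited scale were called as rises as well. They were PSMB5 0.77, PSMB7 0.76, PSMC4 0.84, PSMD4 0.77, PSMD6 0.87 and PSMD7 0.79. Differences that turned with the spike-ins were PSMB8 0.14, PSMB9 0.31, PSMB10 0.53, PSMD5 0.44, PSME1 0.52 and PSMG4 0.18. The GC correction turned the JeKo-1 changes of POMP (0.043), PSMA8 (0.24) and PSMD5 (0.19) and the difference of ADRM1 (0.49), and reading JeKo-1 as log2 turned that of CCND1 (-0.16).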
